A study of Mus musculus with 6 samples.

Results

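The kinesin and tubulin genes of the mouse were followed through newly made and total RNA at the start of development. Genes were taken by name: symbols that start with Kif and a digit, with Tuba, Tubb or Tubg and a digit, or with Tubgcp, leaving out pseudogene names that hold -ps. The rule found 59 genes of 23259 named in the table, 37 kinesins and 22 tubulins or partners of gamma tubulin, and no measured value entered the choice. The series holds 6 samples in 3 groups: Pabpn1l-null zygotes, wild-type (WT) 2-cell embryos and WT zygotes, with 2 samples each. Pabpn1l encodes a protein of oocytes and early embryos that binds poly(A) tails. Per the labels, each sample was a pool of 50 embryos from mated females at 26 h after hCG, the hormone given to trigger ovulation, held for 2 h in 200 μM 4-thiouridine (S4U). The same text stands for all 3 groups and speaks of zygotes, so when the 2-cell embryos were collected is unknown here. The sources used here give no strain or age of the mice, no null allele and no parent that carried it.

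S4U is built into RNA made during labelling. After alkylation with iodoacetamide it is read as C in place of T, so reads with a T-to-C mismatch report RNA made in those hours, while total reads also count RNA stored earlier. Each group has 1 pair of count columns in the table, for total reads and for T-to-C reads, so no comparison has a replicate check and each test compares libraries, not conditions. Levels are relative to all RNA of a library. The amount of RNA per embryo was not measured, so a change in the number of transcripts per embryo cannot be told apart from a change in the rest of the RNA.

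Microtubules are built from dimers of alpha and beta tubulin. Gamma tubulin and its partners, the Tubgcp proteins, form the ring that starts new microtubules. Kinesins are motors, most of which walk along microtubules: some shape the spindle and complete cell division, others carry cargo, and a few shorten microtubules from their ends. Mouse zygotes divide with a store of RNA and protein made in the oocyte, much of which is cleared as the embryonic genome becomes active at the 2-cell stage.

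The columns held 1270347 total reads in null zygotes, 4020444 in 2-cell embryos and 3001472 in WT zygotes. T-to-C reads made up 3.86%, 4.54% and 3.03% of them in the same order of groups. Few genes stood at exactly 1 read in null zygotes, 184 against 545 in 2-cell embryos and 977 in WT zygotes, and 58.3% of the 1295 genes with 3 to 5 reads expected there had none. From the null column 7.21 reads per molecule were estimated, and every test and interval takes 7 reads as 1 molecule. For the other columns this number is an assumption. Pabpn1l itself had 4 reads in null zygotes, 14 in 2-cell embryos and 47 in WT zygotes, too few for a call (null over WT zygotes 0.192, 95% interval 0.000387 to 2.24). All 10 oocyte markers had reads in each column, and their sum was 16730 RPM (total reads scaled to a column of 1000000, adjusted by TMM, a trimmed mean of gene ratios) in null zygotes, 3349 in 2-cell embryos and 13186 in WT zygotes. Bmp15 gave 9708 of these markers' 22144 reads in null zygotes, 7874 of 12972 in 2-cell embryos and 26444 of 39428 in WT zygotes. The 10 early 2-cell markers in the table summed to 14058 reads in 2-cell embryos, 21 in null zygotes with 8 of 10 at 0, and 220 in WT zygotes with 3 at 0. Of 17 cumulus and granulosa markers 15 were at 0 in null zygotes and 10 in each of the other columns, with sums of 27, 100 and 137 reads in null zygotes, 2-cell embryos and WT zygotes. Of 10 sperm markers 9, 7 and 7 were at 0 in the same order, and Odf2, also a centrosome protein, gave nearly all of their 274, 1751 and 444 reads. Blood markers summed to 1, 47 and 51 reads. The part of these markers in the results was not tested.

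All 59 genes summed to 11507 total reads in null zygotes, 16796 in 2-cell embryos and 22627 in WT zygotes. In RPM, the scale of every level here, the sums were 8694 in null zygotes, 4336 in 2-cell embryos and 7567 in WT zygotes. The kinesin and tubulin sum in 2-cell embryos was thus 0.573 of that in WT zygotes, and in null zygotes it was 1.15 of it. At least 1 read was present for 42 genes in null zygotes and for 53 in each of the other columns. The test needed 20 reads over the 3 columns, which 47 genes had and 12 had not. Tuba8 and Kif12 had no read anywhere.

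**Figure D1:**
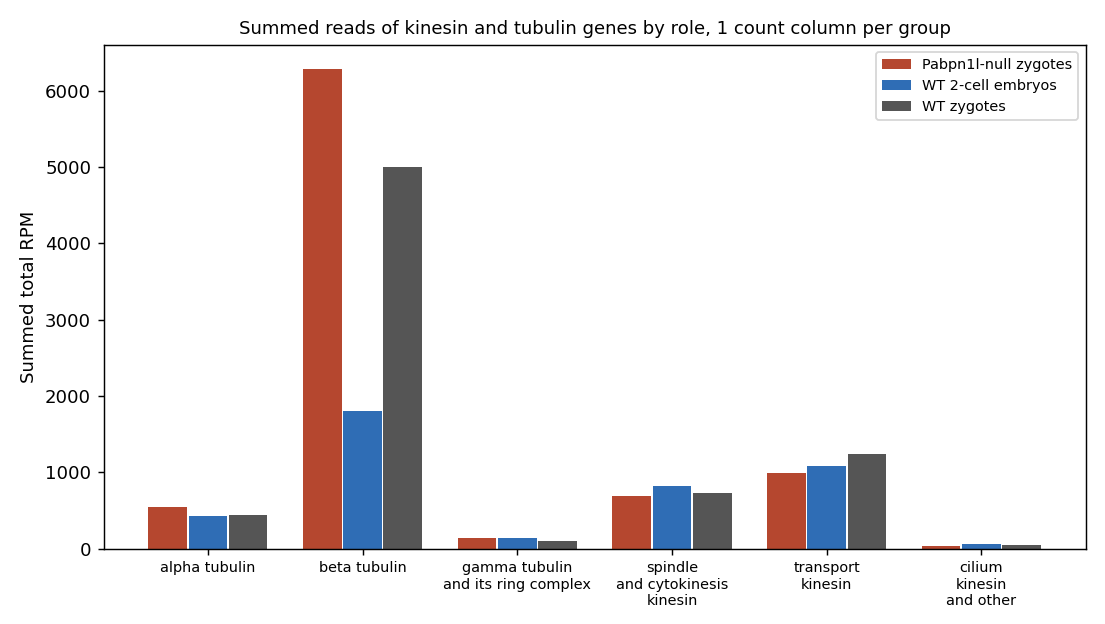
Summed total RPM (vertical axis) of the kinesin and tubulin genes in each role, for Pabpn1l-null zygotes, WT 2-cell embryos and WT zygotes. Bars are 1 count column per group with no error, and they are to be compared within a role, since reads were not divided by transcript length. The beta tubulin bars stand at 6290, 1801 and 5000, and no other role differs as much between 2-cell embryos and WT zygotes.

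Between 2-cell embryos and WT zygotes, 15 of the 47 genes tested passed an adjusted p of 0.05 and a 2-fold difference, 8 higher and 7 lower in 2-cell embryos. That is 31.9% of them, near the 32.4% of all 11262 genes tested in that comparison. The median log2 ratio was 0.02 for these genes and 0.04 for all genes tested. Of the 8 higher genes, Kif13a, Kif3c, Kif18b and Tuba1a reached the reads needed for the test only through their 2-cell reads. Each of the 7 lower genes had that many reads in every column. The number called higher thus depends in part on a filter that counted the 2-cell reads. The roles differed in what was called: 5 of 6 beta tubulins tested were lower and none higher, 2 of 6 alpha tubulins were higher, none of 7 genes of the gamma tubulin ring was called, spindle and cytokinesis kinesins gave 2 higher and 1 lower of 11, transport kinesins gave 4 higher and 1 lower of 14, and none of 3 cilium and other kinesins was called. Whether one role differs from another was not tested. Under RLE scaling, by the median ratio of genes, the median log2 ratio of all genes moved to 0.28, Tubb2a and Kif23 lost their calls and Tubg2 gained one. When edgeR's exact test was run on the reads with a biological variation of 0.4 assumed, 8 members were called (17% of 47, where 26.3% of all genes were), 6 higher and 2 lower. Of the 15 genes, Tubb2a, Tubb2b, Tubb4b, Tubb6, Kif2a, Kif5b, Kif17, Kif21b and Kif23 lost their calls under that test, and Kif1a and Tubgcp6 gained one.

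Between null and WT zygotes none of the 47 genes was called, where 1.36% of all 11262 genes were. The median log2 ratio was 0.01 for the members and -0.15 for all genes tested. Among all genes tested in that comparison 1060 had an unadjusted p under 0.05 by the same exact test, and edgeR's exact test at an assumed variation called none of the members either. Counting every read as 1 molecule called 10 members (21.3% of 47, where 23.9% of all genes were), 3 higher and 7 lower in null zygotes. With no fold required, 2.67% of all genes had an adjusted p under 0.05 in that comparison, and the members among them were Tubb2a and Tubb6.

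**Figure D2:**
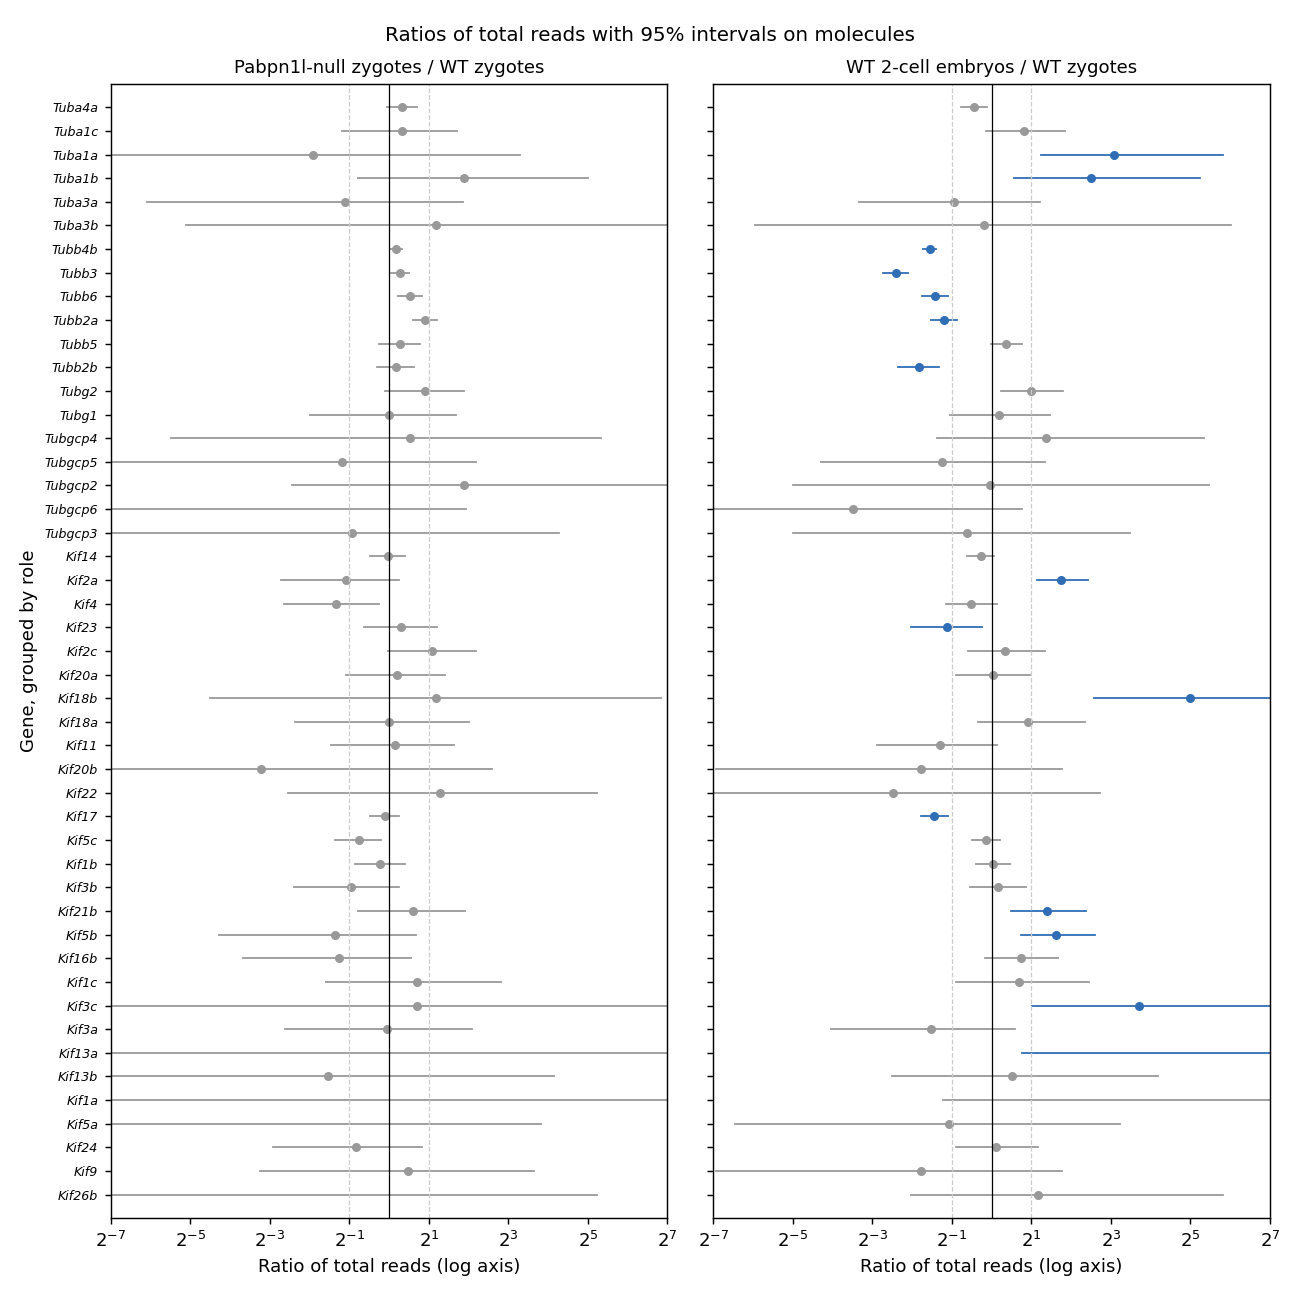
Ratio of total reads for each of the 47 genes tested (log axis), null zygotes over WT zygotes on the left and 2-cell embryos over WT zygotes on the right. Points are ratios, bars 95% intervals on molecules clipped at the frame, colour marks the called genes and dashed lines mark 2-fold. No gene is coloured on the left and 15 are on the right, among them 5 beta tubulins to the left of the line at 1.

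Promoter sequence was read from RefSeq on GRCm38.p6, in windows from 250 bases before to 50 after an annotated start, for the 49 members with a promoter there. Short motifs were searched on both strands, with the choice made after the values were seen. The shown ones are TTTGAA, the cell cycle gene homology region through which genes of the late cell cycle are held off, and CCAAT, bound by NF-Y. The shown windows belong to the member with the most T-to-C reads in 2-cell embryos, to the kinesin with the largest fold among genes higher in 2-cell embryos, and to 2 beta tubulins lower there. Letters are 5′ to 3′ on the gene's strand, and capitals mark TTTGAA and CCAAT on either strand. Tubg2 is at chr11:101155634-101155933 (plus strand), Kif18b at chr11:102925075-102925374 (minus), Tubb4b at chr2:25224653-25224952 (minus) and Tubb3 at chr8:123411303-123411602 (plus).
Tubg2: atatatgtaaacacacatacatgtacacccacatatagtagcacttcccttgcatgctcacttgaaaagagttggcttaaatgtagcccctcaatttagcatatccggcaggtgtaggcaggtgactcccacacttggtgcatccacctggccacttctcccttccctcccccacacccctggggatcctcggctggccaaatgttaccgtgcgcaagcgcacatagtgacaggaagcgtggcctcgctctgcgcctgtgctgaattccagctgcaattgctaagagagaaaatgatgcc
Kif18b: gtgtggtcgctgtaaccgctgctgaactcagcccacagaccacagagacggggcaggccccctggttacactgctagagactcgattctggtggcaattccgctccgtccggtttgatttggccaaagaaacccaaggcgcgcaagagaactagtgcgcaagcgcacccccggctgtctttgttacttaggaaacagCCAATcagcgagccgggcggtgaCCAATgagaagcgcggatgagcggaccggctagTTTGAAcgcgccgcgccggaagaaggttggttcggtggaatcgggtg
Tubb4b: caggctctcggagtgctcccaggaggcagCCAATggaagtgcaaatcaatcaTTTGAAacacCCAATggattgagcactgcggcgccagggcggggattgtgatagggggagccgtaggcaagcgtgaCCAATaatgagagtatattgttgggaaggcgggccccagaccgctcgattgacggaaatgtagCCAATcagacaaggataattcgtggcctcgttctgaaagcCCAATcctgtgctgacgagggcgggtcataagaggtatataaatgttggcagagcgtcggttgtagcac
Tubb3: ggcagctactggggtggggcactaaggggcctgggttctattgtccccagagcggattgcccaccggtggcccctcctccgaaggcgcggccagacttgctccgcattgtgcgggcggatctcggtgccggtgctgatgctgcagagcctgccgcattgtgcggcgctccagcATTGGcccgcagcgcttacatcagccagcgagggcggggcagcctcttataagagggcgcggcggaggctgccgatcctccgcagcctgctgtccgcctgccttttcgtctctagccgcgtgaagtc

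Tubg2 held neither motif, Kif18b held 2 CCAAT and 1 TTTGAA, Tubb4b held 5 CCAAT and 1 TTTGAA, and Tubb3 held 1 CCAAT, on the reverse strand. TTTGAA stood in at least 1 window of 9 of the 12 spindle and cytokinesis kinesin genes with a promoter (75%): Kif11, Kif14, Kif15, Kif18b, Kif20b, Kif22, Kif23, Kif2c and Kif4. Over all roles it stood in 14 of the 49 members (28.6%), and in 20.2% of all 27025 genes with a promoter. It stood in 2 of 8 cilium and other kinesins, 1 of 11 transport kinesins, 1 of 6 beta tubulins and 1 of 7 alpha tubulins. None of the genes of the gamma tubulin ring held it. CCAAT stood in 22 of the 49 members (44.9%), near the 41.1% of all genes. By role it stood in 4 of 6 beta tubulins, 4 of 7 alpha tubulins and 7 of 12 spindle kinesins. It also stood in 4 of 8 cilium and other kinesins, 3 of 11 transport kinesins and none of 5 genes of the gamma tubulin ring. GGGCGG, which Sp1 binds, stood in 62.3% of the members' 53 windows and TATAAA in 13.2%, against 35.7% and 13.6% of all 32851 windows. The 9 spindle and cytokinesis kinesins with TTTGAA did not move alike: Kif18b was called higher in 2-cell embryos, Kif23 lower, and the others were not called. Of these others, Kif15 had 3 reads over the columns and was not tested. A match in these windows is a description of letters and not a binding site.

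Beta tubulin supplies the subunit of the dimer that faces the growing end of the microtubule. Tubb4b, a widely expressed form also abundant in cilia, had 3638 total reads in null zygotes, 3203 in 2-cell embryos and 7260 in WT zygotes, or 2749, 827 and 2428 RPM in the same order. It was lower in 2-cell embryos, at 0.34 of the WT zygote level (95% interval 0.30 to 0.38, adjusted p = 9.9e-88, exact conditional binomial test). Tubb3, best known as the neuronal beta tubulin, had 1625 total reads in null zygotes, 738 in 2-cell embryos and 3030 in WT zygotes. Its level in 2-cell embryos was 0.19 of that in WT zygotes (0.15 to 0.23), the lowest ratio among the called genes.

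Tubb2a and Tubb2b are a pair of adjacent, near-identical genes, and the assignment of reads they share is not given in the sources, so their split is uncertain. Tubb2a had 1204 total reads in null zygotes, 825 in 2-cell embryos and 1456 in WT zygotes, and Tubb2b had 422, 310 and 847 in the same order. In 2-cell embryos Tubb2a was at 0.44 (0.35 to 0.55) and Tubb2b at 0.28 (0.20 to 0.40) of WT zygotes. Tubb6, a beta tubulin of many tissues, had 1095 total reads in null zygotes, 824 in 2-cell embryos and 1710 in WT zygotes, and its level in 2-cell embryos was 0.37 of that in WT zygotes (0.30 to 0.47). Tubb5, a major beta tubulin of dividing cells, was not called: it had 341 reads in null zygotes, 1071 in 2-cell embryos and 639 in WT zygotes, a 2-cell ratio of 1.29 (0.99 to 1.70). Of the other members of this role, Tubb4a had 10 reads, all in WT zygotes, and Tubb1, the platelet form, had 4, all in 2-cell embryos. RefSeq places Fam166a over 124 bp of Tubb4b, with 95, 306 and 185 reads in null zygotes, 2-cell embryos and WT zygotes, and no source states whether counting used strand.

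In null zygotes all 6 beta tubulins tested had ratios above 1 to WT zygotes, with none past 2-fold. Tubb2a was at 1.87 (1.52 to 2.30, adjusted p = 6.5e-07, exact conditional binomial test), Tubb6 at 1.45 (1.18 to 1.78), Tubb3 at 1.21 (1.03 to 1.42) and Tubb4b at 1.13 (1.02 to 1.26). The adjusted p was 0.021 for Tubb6 and 0.32 and 0.34 for Tubb3 and Tubb4b by the same test. The summed beta tubulin level in null zygotes was 1.26 of that in WT zygotes, and 1.38 without Tubb4b, which gave the most reads. In 2-cell embryos the sum was at 0.360 of WT zygotes, and at 0.379 without Tubb4b. Both comparisons use the same WT zygote column, so a deviation of that column enters both. The oocyte markers summed to 0.254 of their WT zygote level in 2-cell embryos and to 1.27 in null zygotes. Bmp15 gave 26444 of their 39428 reads in WT zygotes, so these ratios weigh 1 gene heavily. The part of the oocyte markers in the beta tubulin result was not tested.

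**Figure D3:**
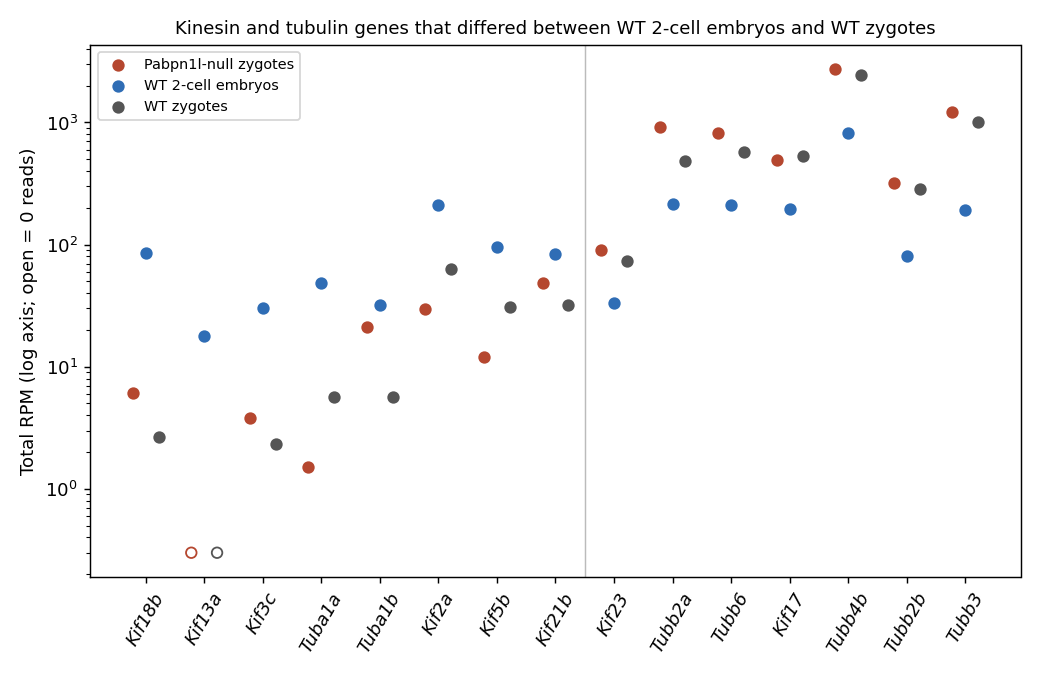
Total RPM (log axis) of the 15 genes called between 2-cell embryos and WT zygotes, in null zygotes, 2-cell embryos and WT zygotes, ordered by their 2-cell ratio. Each point is 1 count column and an open point is 0 reads. To the right of the grey line the 2-cell points lie under the WT zygote points, with Tubb3 at 191 against 1013, and to its left they lie above them, with Kif18b at 85.5 against 2.68.

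Alpha tubulin, the partner of beta tubulin in the dimer, divided by gene. Tuba4a, whose product lacks the encoded C-terminal tyrosine of other alpha tubulins, held most alpha tubulin reads, with 629 in null zygotes, 1081 in 2-cell embryos and 1134 in WT zygotes. Its level in 2-cell embryos was 0.74 of WT zygotes (0.59 to 0.92, adjusted p = 0.023, exact conditional binomial test), under the 2-fold limit. Stk16, with 178, 51 and 286 reads in null zygotes, 2-cell embryos and WT zygotes, overlaps Tuba4a by 635 bp. Tuba1a, an alpha tubulin of the developing nervous system, had 2 reads in null zygotes, 187 in 2-cell embryos and 17 in WT zygotes, and was 8.49-fold higher in 2-cell embryos (2.36 to 56.0). Tuba1b, a general alpha tubulin, had 28 reads in null zygotes, 124 in 2-cell embryos and 17 in WT zygotes, 5.63-fold higher in 2-cell embryos (1.49 to 38.2). These folds rest on fewer than 3 molecules in WT zygotes, as their intervals show. Tuba1c had 53 reads in null zygotes, 219 in 2-cell embryos and 96 in WT zygotes, a 2-cell ratio of 1.76 (0.91 to 3.60) that was not called. Of these reads 0, 27 and 5 had T-to-C, a share of 12.3% in 2-cell embryos (3.36 to 29.0%), and its T-to-C reads were not called. Tuba1a, Tuba1b and Tuba1c are near-identical in coding sequence, so the split among them is uncertain; without Tuba4a the alpha tubulins summed to 2.47 times their WT zygote level in 2-cell embryos.

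Gamma tubulin gave the only gene called higher in T-to-C reads. Tubg2, a gamma tubulin best known from brain, had 8 T-to-C reads of 121 in null zygotes, 326 of 376 in 2-cell embryos and 10 of 146 in WT zygotes. The T-to-C share was 6.61% in null zygotes (95% Clopper-Pearson interval on molecules 0.249 to 29.4%), 86.7% in 2-cell embryos (74.7 to 94.4%) and 6.85% in WT zygotes (0.448 to 26.9%). The 2-cell interval lay apart from both zygote intervals, which overlapped. T-to-C reads of Tubg2 were 25.2-fold higher in 2-cell embryos than in WT zygotes (5.42 to 398, adjusted p = 3.3e-08, exact conditional binomial test), and its share differed with an adjusted p of 5.0e-09 by Fisher's exact test. Among 5112 genes with at least 100 reads in 2-cell embryos, only 11, Tubg2 among them, had a share of 86.7% or more, and the median share was 2.06%.

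The total level of Tubg2 was 91.4 RPM in null zygotes, 97.1 in 2-cell embryos and 48.8 in WT zygotes. The 2-cell ratio of 1.99 (1.18 to 3.47, adjusted p = 0.024, exact conditional binomial test) fell just short of 2-fold, so total Tubg2 was not called. Reads of Tubg2 with no T-to-C mismatch numbered 113 in null zygotes, 50 in 2-cell embryos and 136 in WT zygotes, and in RPM they were at 0.284 of WT zygotes in 2-cell embryos (0.102 to 0.698). Tubg1, the main gamma tubulin of dividing cells, lies 29450 bp from Tubg2 on chromosome 11. It had 32, 108 and 73 reads in null zygotes, 2-cell embryos and WT zygotes, none with T-to-C, and a 2-cell ratio of 1.14 (0.49 to 2.79). Unlabelled embryos were not analysed here, so the share of mismatches that arises without S4U is unknown. The part of sequence differences from the reference genome was not tested.

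The ring partners had few reads. Tubgcp4 had 7 reads in null zygotes, 37 in 2-cell embryos and 11 in WT zygotes, and Tubgcp5 had 6, 17 and 31 in the same order, with 9 T-to-C reads in WT zygotes. Tubgcp2, Tubgcp3 and Tubgcp6 had at most 26 reads in any column. None of them was called by the exact conditional binomial test. Single reads counted as molecules gave calls for Tubgcp4, Tubgcp5 and Tubgcp6 in 2-cell embryos and for Tubgcp2 and Tubgcp6 in null zygotes. With that setting 59.2% of all genes were called in 2-cell embryos and 23.9% in null zygotes.

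**Figure D4:**
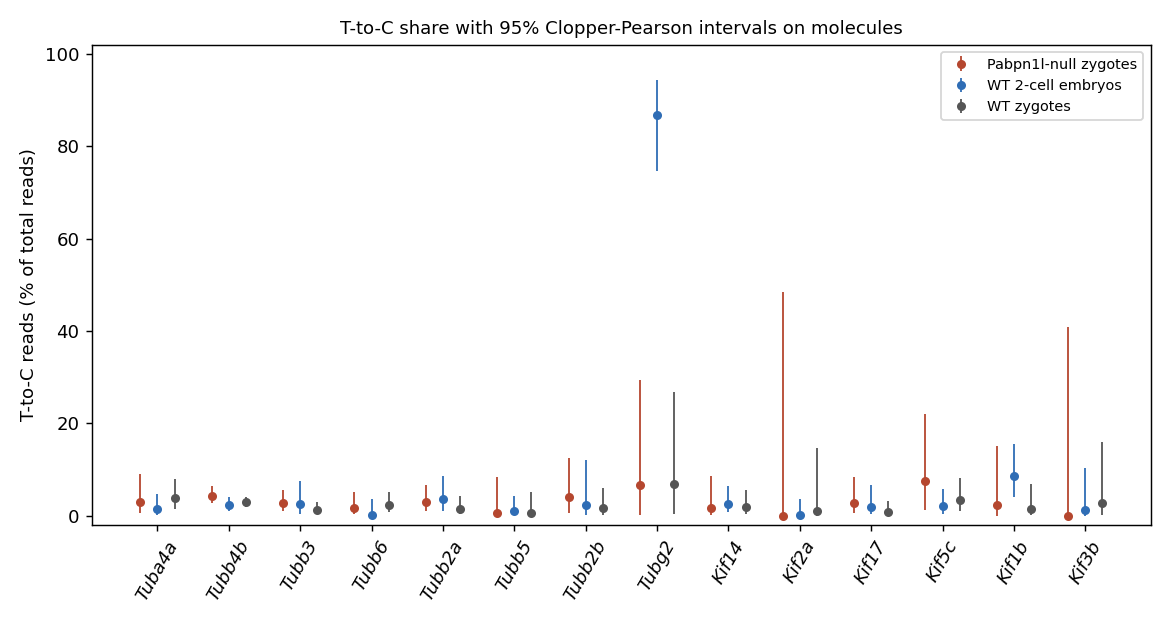
T-to-C reads as a percentage of total reads for members with at least 300 reads in 2-cell embryos and 100 in WT zygotes, in null zygotes, 2-cell embryos and WT zygotes. Bars are 95% Clopper-Pearson intervals on molecules for 1 count column per group. Tubg2 stands at 86.7% in 2-cell embryos, and the next of the plotted members is Kif1b at 8.63%. Members with fewer reads are not shown, among them Tuba1c at 12.3% and Kif13a at 17.4%.

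Spindle and cytokinesis kinesins summed to 694 RPM in null zygotes, 827 in 2-cell embryos and 728 in WT zygotes. Kif14, which acts in cytokinesis with citron kinase, had 438 reads in null zygotes, 1080 in 2-cell embryos and 1010 in WT zygotes, or 331, 279 and 338 RPM, and was not called. Kif2a, a motor that removes tubulin from microtubule ends, had 39 reads in null zygotes, 819 in 2-cell embryos and 188 in WT zygotes. It was 3.36-fold higher in 2-cell embryos (2.20 to 5.32, adjusted p = 4.6e-09, exact conditional binomial test), with 2 T-to-C reads of the 819. Dimt1, which overlaps it by 2330 bp, had 54 reads in 2-cell embryos and 27 in WT zygotes. Kif18b, which shortens astral microtubules and whose promoter holds both motifs, had 8 reads in null zygotes, 331 in 2-cell embryos and 8 in WT zygotes, and was 31.9-fold higher in 2-cell embryos (5.97 to 870), with 1 T-to-C read.

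Kif23, a subunit of centralspindlin at the midzone, was lower in 2-cell embryos. It had 120 reads in null zygotes, 130 in 2-cell embryos and 219 in WT zygotes, a 2-cell ratio of 0.46 (0.24 to 0.84, adjusted p = 0.029, exact conditional binomial test). Kif4, a chromosome-bound kinesin, had 56 reads in null zygotes, 291 in 2-cell embryos and 321 in WT zygotes. Its null ratio was 0.39 (0.16 to 0.84), which did not pass over all genes (adjusted p = 0.23, exact conditional binomial test), and its 2-cell ratio was 0.70 (0.45 to 1.09).

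Transport kinesins summed to 993 RPM in null zygotes, 1082 in 2-cell embryos and 1247 in WT zygotes. Kif17, a dendritic and ciliary motor, had 651 reads in null zygotes, 758 in 2-cell embryos and 1590 in WT zygotes. It was the only transport kinesin called lower in 2-cell embryos, at 0.37 of WT zygotes (0.29 to 0.46), and its null ratio was 0.92. Kif5b, the widely expressed heavy chain of conventional kinesin, had 16 reads in null zygotes, 369 in 2-cell embryos and 93 in WT zygotes, 3.06-fold higher in 2-cell embryos (1.65 to 6.08). Kif5c, a heavy chain of the same motor best known from neurons, was not called: it had 238 reads in null zygotes, 1072 in 2-cell embryos and 910 in WT zygotes, with a null ratio of 0.59 (0.39 to 0.87, adjusted p = 0.14, exact conditional binomial test) and a 2-cell ratio of 0.91 (0.72 to 1.16). Kif21b, a neuronal and immune cell kinesin that affects microtubule growth, had 64 reads in null zygotes, 325 in 2-cell embryos and 96 in WT zygotes, 2.61-fold higher in 2-cell embryos (1.41 to 5.18).

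Kif3c, a partner in heterodimers with Kif3a, had 5 reads in null zygotes, 118 in 2-cell embryos and 7 in WT zygotes, 13.0-fold higher in 2-cell embryos (2.04 to 544). An overlapping gene, 1110002L01Rik, had 67 reads in 2-cell embryos and 1 in WT zygotes, and its part in the Kif3c reads was not tested. Kif3b, the more widely used partner of Kif3a, had 49, 310 and 216 reads in null zygotes, 2-cell embryos and WT zygotes and a 2-cell ratio of 1.11 (0.68 to 1.82). Kif13a, an endosomal motor, had 69 reads in 2-cell embryos and none in null or WT zygotes. Set against the floor of 3 molecules (21 reads) in WT zygotes it was 2.54-fold higher in 2-cell embryos. That fold leaves out the counting error of the 2-cell reads, and the interval of the ratio began lower, at 1.70. Kif13a also had 12 T-to-C reads of the 69, a share of 17.4% (1.67 to 53.2%).

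Kif1b, which carries mitochondria and synaptic vesicle precursors, was not called in total reads, with 219 reads in null zygotes, 765 in 2-cell embryos and 575 in WT zygotes and a 2-cell ratio of 1.03 (0.76 to 1.38). Its T-to-C reads numbered 5 in null zygotes, 66 in 2-cell embryos and 8 in WT zygotes, shares of 2.28%, 8.63% and 1.39%. The T-to-C ratio of 6.37 (0.97 to 189) was not called (adjusted p = 0.49, exact conditional binomial test). Another row of the table under the name Kif1b, with fewer reads, had 26, 333 and 72 total reads in null zygotes, 2-cell embryos and WT zygotes. With the rows of each name summed, the 2-cell log2 ratio of Kif1b in total reads moved from 0.04 to 0.39. No member changed its call in any comparison with the rows summed.

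Of 9 cilium and other kinesins, 3 had enough reads to be tested and none was called. Kif24, a centriolar kinesin, had 27 reads in null zygotes, 152 in 2-cell embryos and 108 in WT zygotes and a 2-cell ratio of 1.09 (0.54 to 2.24). Kif9, a motor of motile cilia, had 13, 8 and 21 reads in the same order, Kif26b had 0, 26 and 9, and Kif7, a regulator of hedgehog signalling in cilia, had 0, 10 and 2. The 28 members with lower counts and no call had between 0 and 405 reads over the 3 columns, with a median of 26, and 11 of them were not tested.

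In T-to-C reads 17 genes could be tested, which asks for 10 T-to-C reads over the 3 columns. Between 2-cell embryos and WT zygotes, 2 of the 17 were called, Tubg2 higher and Tubb4b lower, where 5.74% of 4376 genes tested were called (4.18% higher, 1.55% lower). Tubb4b had 157 T-to-C reads in null zygotes, 73 in 2-cell embryos and 208 in WT zygotes, and its 2-cell level of them was 0.27 of WT zygotes (0.12 to 0.56, adjusted p = 0.0052, exact conditional binomial test). Its T-to-C share was 4.32% in null zygotes, 2.28% in 2-cell embryos and 2.87% in WT zygotes, and the share did not pass its test in either comparison. Tubb6 had 19, 2 and 40 T-to-C reads in null zygotes, 2-cell embryos and WT zygotes, a 2-cell ratio of 0.04 (0.00 to 0.83) that did not pass over all genes. With edgeR's exact test Tubb4b lost its call in T-to-C reads, and the test called Tubg2, Tubb6 and Kif1b (17.6% of 17 called in all, where 21.4% of all genes were).

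Between null and WT zygotes none of the 17 was called in T-to-C reads, where 0.0457% of 4376 genes were and 41 genes had an unadjusted p under 0.05. With every read as 1 molecule 4 were called higher in null zygotes, Kif17, Kif22, Tubb2a and Tubb3 (23.5% of 17, where 17.9% of all genes were). The beta tubulins had 273 T-to-C reads in null zygotes and 329 in WT zygotes, a scaled ratio of the sums of 1.87, with all 6 ratios above 1. Their T-to-C share was 3.28% in null zygotes (2.34 to 4.46%), 2.01% in 2-cell embryos (1.23 to 3.08%) and 2.20% in WT zygotes (1.62 to 2.92%), and these intervals overlapped. The share of all reads was also higher in the null column, as given above. By share, none of 27 genes was called in null against WT zygotes, where 0.0167% of 5999 genes were, and 1 of 29, Tubg2, in 2-cell embryos against WT zygotes, where 1.91% of 6909 were (1.85% higher, 0.0579% lower). The authors' own Positive calls of labelled genes covered 9 of the 59 in null zygotes, 3 in 2-cell embryos and 6 in WT zygotes, 5, 1 and 3 of them beta tubulins. These are 15.3%, 5.08% and 10.2% of the 59, where 4.26%, 5.83% and 2.85% of all genes were Positive in the same order of groups. All genes here are 23259 names, of which 9773, 14088 and 14156 had a read. Among the members 42, 53 and 53 had a read, and the part of read depth in these percentages was not tested. The 3 Positive members in 2-cell embryos were Tubb4b, Tubg2 and Kif1b.

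Summed, the genes higher in 2-cell embryos by total reads had a T-to-C share there under that of all genes of the column. The interval of the sum still held the median of single genes. The 8 of them had 2342 total reads and 28 T-to-C reads in 2-cell embryos, a share of 1.20% (0.327 to 3.03%), against 4.54% over all genes of the column and a median of 2.06% over genes with at least 100 reads there. Tuba1b with 11 and Kif13a with 12 gave most of the 28, and the other 6 had at most 2 each. The shares of Tuba1b and Kif13a alone were higher, 8.87% (0.710 to 32.1%) and 17.4% (1.67 to 53.2%). Kif2a gave 819 of the 2342 total reads, so it weighs heavily in the summed share. The same 8 had 162 reads in null zygotes and 426 in WT zygotes. The 7 lower genes had 144 T-to-C reads of 6788 in 2-cell embryos, a share of 2.12% (1.31 to 3.24%), and 344 of 16112 in WT zygotes, a share of 2.14% (1.58 to 2.81%). These groups were formed by the total reads of the same libraries and are given as a description.

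Other microtubule genes were counted from 5 lists, beside 16.4% of all genes higher and 15.9% lower in 2-cell embryos. Of 7 tested kinesin genes named outside the rule, Cenpe, which links kinetochores to microtubules, was lower in 2-cell embryos, with 34 reads against 122 in WT zygotes, a ratio of 0.215 (0.0610 to 0.611), and none was higher. Spindle assembly and microtubule-associated genes gave 3 higher and 14 lower of 46, with a median log2 ratio of -0.45. Aspm, which focuses spindle poles, had 160 reads in null zygotes, 81 in 2-cell embryos and 1320 in WT zygotes, and was lower in both, at 0.274 (0.169 to 0.424) in null zygotes and 0.0474 (0.0237 to 0.0855) in 2-cell embryos. Called augmin subunits went both ways. Haus2 was 29.6-fold higher in 2-cell embryos (interval 4.996 to 1198), with 268 reads against 7 in WT zygotes. Haus8 was lower there, at 0.107 of WT zygotes (0.0182 to 0.379), with 19 reads against 137. Haus4 was 2.75-fold higher in null zygotes (1.57 to 4.88), with 212 reads against 174. Dlgap5, a spindle protein, had 27 reads in 2-cell embryos against 336 in WT zygotes, and Fign, a microtubule-severing protein, had 58 against none.

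Dynein and dynactin genes gave 2 higher and 4 lower of 22 in 2-cell embryos, with a median log2 ratio of -0.31. Dctn5, a dynactin subunit, had 39 reads in 2-cell embryos against 376 in WT zygotes, and Dync1li1, a light intermediate chain, had 127 against 11. Dync1i2, an intermediate chain, and Dctn4 were at 0.227 (0.140 to 0.356) and 0.235 (0.140 to 0.382) of WT zygotes. Genes of tubulin folding and modification gave 3 higher and 4 lower of 37, with a median of -0.05. Pfdn4, a prefoldin subunit, had 162 reads in null zygotes, none in 2-cell embryos and 112 in WT zygotes. It was 3.27-fold higher in null zygotes (1.65 to 6.61). Set against the floor of 3 molecules it was 6.91-fold lower in 2-cell embryos, and the interval of its ratio ended at 0.200. Ttll12, of the tubulin tyrosine ligase family, had 147 reads in 2-cell embryos and none in WT zygotes. Against the same floor it was 5.40-fold higher, and the interval of its ratio began at 4.02. Cct6a, a chaperonin subunit, had 142 reads in 2-cell embryos against 4 in WT zygotes, and Tbcc, a tubulin folding cofactor, had 534 against 90. Centrosome and centriole genes gave 2 higher and 3 lower of 25, with a median of -0.43. The higher ones were Stil with 224 and Cep135 with 443 reads in 2-cell embryos against 12 and 58 in WT zygotes. Among the lower ones, Pcm1 had 78 and Tube1 had 26 reads in 2-cell embryos against 370 and 106 in WT zygotes. In null zygotes Pfdn4, Aspm and Haus4 were the only genes called in total reads over the 5 lists, of 137 tested (2.19%, where 1.36% of all genes were). In T-to-C reads 3 of 52 tested were called (5.77%, where 5.74% of all genes were), Dynll2, Actr1a and Spast, all higher in 2-cell embryos, with 280, 232 and 239 T-to-C reads there against 28, 24 and 38 in WT zygotes.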

How the data were processed

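RNA labelled with S4U was sequenced from 2 samples each of Pabpn1l-null zygotes, WT 2-cell embryos and WT zygotes, after ribosomal RNA depletion, per the labels' protocols. The deposited table holds, per gene row and group, counts of all reads and of T-to-C reads, and a Positive or Negative call, made by the authors. The genome build is mm10, per the submitters' processing notes. No source used here names the aligner, counting tool, annotation, strandedness or treatment of duplicates, or says whether each column pair merges both samples of its group. Fold ratios, shares and p-values below were computed from these counts.

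Where a name had several rows, the most-read row was used, and 47 rows with a date for a name were left out of 30493. Names of all 59 members matched RefSeq symbols. Columns were scaled by TMM factors of edgeR 4.0.16 in R 4.3.3 (1.04 in null zygotes, 0.963 in 2-cell embryos and 0.996 in WT zygotes), with the same sizes for T-to-C reads. edgeR's quasi-likelihood test needs replicates and was not run. Counts divided by 7 were compared by an exact conditional binomial test (scipy 1.17.1), two-sided, with Benjamini-Hochberg adjustment over all genes with at least 20 total or 10 T-to-C reads. A gene was called at an adjusted p under 0.05 and a 2-fold ratio. Shares were compared by Fisher's exact test for genes with 20 reads in both columns, and called on the adjusted p alone. A log2 ratio has 0.5 molecule added to each side. Intervals are 95% and cover counting error only. The tests were checked on simulated data that took 7 reads per molecule in every column. The bounds for a share were compared with scipy's Clopper-Pearson interval at a single pair of whole counts, and the coverage of the intervals was not simulated. The floor for a count of 0 is 3 molecules.

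Values are given for members called in any comparison, for those with at least 1000 reads over the columns, and for up to 4 with the most reads in each role; for other lists, for those called in null zygotes and up to 4 with the largest ratios among those called in 2-cell embryos. Further members, and Haus8 from the other lists, were named after their values were seen. The members, roles and lists were chosen with earlier results of these data known.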

Additional observations from a re-analysis of the deposited data

How the results depend on the processing

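Each count column stands alone for its group, so p-values hold only the sampling of molecules, and the size of 7 reads per molecule carries much of the result. Counting each read as 1 molecule called 10 members in total reads of null against WT zygotes (3 higher, 7 lower), 24 in total reads of 2-cell embryos against WT zygotes, 4 and 9 in T-to-C reads, and 4 and 5 in T-to-C share, in the same order of comparisons. The main values were 0, 15, 0, 2, 0 and 1. Groups of 7 reads in the null column alone gave 24 and 9 called in total and T-to-C reads of 2-cell embryos. For that comparison, which does not use the null column, this is the same run as 1 read per molecule. edgeR's exact test at an assumed variation of 0.4 called 8 in total reads of 2-cell embryos, and in T-to-C reads lost Tubb4b and gained Kif1b and Tubb6, with 938 genes called against 251. A filter of 50 reads in 2 columns left 1 called in T-to-C reads of 2-cell embryos, since Tubg2 was no longer tested, and left Kif13a, Kif18b, Kif3c, Tuba1a and Tuba1b untested in total reads. Over all genes, 1 read per molecule called 2686 in total reads of null zygotes against 153, and 6662 against 3644 in 2-cell embryos; in T-to-C reads 784 against 2, and 2162 against 251. By share, 1 read per molecule called 14.8% of the members tested in null zygotes, near the 13.3% of all genes. In 2-cell embryos it called 17.2% of the members tested by share, near the 15.7% of all genes. Calls in 2-cell embryos were 50.7% higher in total reads, 61.4% under RLE and 34.1% with the 50-read filter. In T-to-C reads they were 72.9% higher, and 48.7% when scaled by the columns' own T-to-C totals. Over the 31 members given by value, a call was kept in 123 alternatives and lost in 12, and with no call at first one was gained in 37 and not in 667. None reversed, but every alternative reused the same counts. These numbers include the repeated run in 2-cell embryos and leave out genes that a filter left untested. No paired analysis was possible because the table holds 1 column pair per group with no replicate number, so no replicate was left out either.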

Other observations

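A pair of names fitting the rule but for their -ps ending were left out as pseudogenes. Tubb2a-ps2 had 116 T-to-C reads of 159 in null zygotes, 54 of 62 in 2-cell embryos and 297 of 355 in WT zygotes, shares of 73.0%, 87.1% and 83.7%. Its high share thus stood in all 3 columns, while the share of Tubg2 was high in 2-cell embryos alone among the columns. Kif4-ps had 15, 3 and 6 reads in null zygotes, 2-cell embryos and WT zygotes.

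Kif22, a chromosome-bound kinesin picked out here after its values were seen, had 13 T-to-C reads of 14 in null zygotes, 3 of 3 in 2-cell embryos and 8 of 13 in WT zygotes. Kif19a had 8 reads, all in WT zygotes, 6 of them with T-to-C. In T-to-C reads Kif22 was not called in either comparison, and Kif19a had too few reads to be tested.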
